A study of Mus musculus with 8 samples.

Results

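The neighbourhood of Paupar and Pax6 was taken as the 90 kb of mouse chromosome 2 from 105610000 to 105700000 (mm10), which hold Paupar, the whole of Pax6 and the sequence between and around them. Its members were the restriction fragments with a midpoint in this stretch, read as contacts of 3 promoter viewpoints (Paupar, Pax6P0 and Pax6P1), with fragments within 5 kb of a viewpoint's own centre left out. There were 226 such fragments among the 79397 chromosome 2 fragments listed from the 3 viewpoints: 206 from Paupar, 202 from Pax6P0 and 200 from Pax6P1. They had a median width of 246 bp (range 3 to 2717 bp) and covered 99.4% of the 90 kb. The rule used position alone and no contact frequency, though it was set with earlier results of these data known.

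The libraries were genomic DNA of a chromosome conformation capture assay, in which chromatin is crosslinked, cut and ligated, and a chosen fragment (the viewpoint) is read together with the fragments joined to it. There were 8 libraries, 2 from each of 4 cell types. Mouse embryonic stem cells (ES) were grown on gelatin in serum with leukemia inhibitory factor, and neural stem cells (NSC) came from E14.5 cortex and were grown in StemPro medium with bFGF and EGF. Cortical neurons were differentiated from such NSC on Poly-D-Lysine in Neurobasal B27 medium, and N2a, a mouse neuroblastoma line, was grown in DMEM with fetal bovine serum. No genotype, allele or drug treatment is named in the labels, and whether the replicates were separate cultures is not stated, so the p-values below measure the spread between these libraries, which may be technical. N2a is a tumour-derived line and stands for 1 line only. The assay holds no RNA, so the cell types could not be checked against marker genes.

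Pax6 encodes a paired-box and homeobox transcription factor of the developing eye, brain and pancreas. It is transcribed from several promoters, of which P0 and P1 give transcripts that differ in their first exons. Paupar is a nuclear long noncoding RNA gene just before Pax6, whose transcript is known to act together with the PAX6 protein on neural genes and to affect the growth and differentiation of N2a cells. Contacts between a promoter and nearby sequence fall steeply with distance in any chromatin, and enhancers or other promoters can stand out above that fall. The series' title names Wnt-responsive elements at these genes. In Wnt signalling, beta-catenin enters the nucleus and works through the TCF/LEF factors, which bind a short core sequence.

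The viewpoints lie close together. The Paupar viewpoint, labelled as its transcription start (TSS), was centred at 105661400, near the higher end of Paupar (105657862 to 105661343). The Pax6P0 viewpoint followed 7.038 kb later, at 105668438, close to the first base of Pax6 (105668896 to 105698410). The Pax6P1 viewpoint lay at 105675114, 6.676 kb past Pax6P0 and within Pax6. Pax6os1, a long noncoding RNA gene on the opposite strand (105536080 to 105670330), overlaps Paupar and the start of Pax6. Gm35946, a further long noncoding RNA gene, lies at 105611515 to 105620482. The end of Elp4, a subunit gene of the Elongator complex whose body holds distal enhancers of Pax6, overlaps the last part of Pax6 from 105697320. Upstream and downstream mean lower and higher coordinates below, as do before and past where a gene is named. Downstream is also the direction of Pax6 transcription. With its labelled start at the higher end, Paupar runs the other way. Sequence called before Paupar thus lies beyond the far end of its gene, and sequence just past Paupar lies on the side of its start. Only the outer limits of genes were in the annotation used, so windows are placed within a gene and not in an exon or intron.

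Of the promoters in the neighbourhood, 3 are shown because their GATC positions set how finely contacts could be read there. Fragment ends fell on GATC: of 263 boundaries between adjoining listed fragments in 2843 RefSeq promoter windows of chromosome 2, all 263 were at this sequence. The sequences run from 250 bases before to 50 bases after each RefSeq start (GRCm38.p6, the mm10 assembly), 5′ to 3′ on the gene's own strand, with each GATC in capitals. The first is the Pax6 start next to the Pax6P0 viewpoint, chr2:105668646-105668945, plus strand. The second is a Pax6 start inside the gene, chr2:105682213-105682512, plus strand, which lies in the window most read from Pax6P1. The third is the start of Pax6os1, chr2:105670281-105670580, minus strand.
Pax6 first start: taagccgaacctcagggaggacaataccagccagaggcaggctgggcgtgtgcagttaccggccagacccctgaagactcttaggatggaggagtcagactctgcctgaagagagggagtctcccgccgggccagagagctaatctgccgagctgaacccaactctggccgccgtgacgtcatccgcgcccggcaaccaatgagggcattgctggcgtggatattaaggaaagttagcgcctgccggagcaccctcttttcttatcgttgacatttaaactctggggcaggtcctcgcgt
Pax6 internal start: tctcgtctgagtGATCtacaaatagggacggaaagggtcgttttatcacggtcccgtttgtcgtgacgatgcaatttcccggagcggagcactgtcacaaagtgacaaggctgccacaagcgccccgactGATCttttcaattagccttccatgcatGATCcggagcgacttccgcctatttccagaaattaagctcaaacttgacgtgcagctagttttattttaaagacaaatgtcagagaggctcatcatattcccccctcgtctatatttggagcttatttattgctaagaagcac
Pax6os1 start: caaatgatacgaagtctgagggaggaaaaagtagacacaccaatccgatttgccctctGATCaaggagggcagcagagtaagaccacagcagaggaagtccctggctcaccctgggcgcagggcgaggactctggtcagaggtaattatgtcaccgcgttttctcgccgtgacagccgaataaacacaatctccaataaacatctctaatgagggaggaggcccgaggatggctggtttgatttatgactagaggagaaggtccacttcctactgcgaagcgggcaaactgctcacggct
The first Pax6 promoter held 0 GATC and lay within 1 fragment of 381 bp, so that its contacts were read as a single value. The internal promoter held 3 GATC and was spread over 4 fragments. The Pax6os1 promoter held 1. GC content was 58.7%, 46.3% and 52.3%. The TCF/LEF core CTTTGA, searched on both strands, was in none of the 3, while 16.0% of 32851 mouse promoter windows of the same length held it. These letters being absent from 300 bases says nothing of factor binding nearby. The RefSeq promoter entries at hand had none for Paupar or for the Pax6P1 start, so those promoters were not searched.

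Each file held 19760 to 129499 listed reads, of which 44.8% to 73.3% lay on chromosome 2. Reads on chromosome 2 beyond 5 kb of the viewpoint, called cis reads, numbered 10439 to 71202 per file (median 34114 over 24 files). Members held 1970 to 15975 of these (median 6870), and the NSC replicate 1 library was the shallowest from every viewpoint. A read may have been listed at more than 1 fragment: of neighbouring cis fragments that adjoin, 52.4% to 73.3% per file held the same count, against 23.6% to 40.2% of neighbours that do not adjoin. Among members, where counts are high, 1.05% to 14.9% of adjoining pairs were equal. If 1 read could cover a whole run of adjacent fragments, the member counts could come from as few as 19.9% to 30.6% of the listed number. For all cis reads this was 33.4% to 53.1%, so shares of members fall under that setting. Reads and shares below are of listed counts unless the fewest reads are named. Of the members, 183 of 206, 176 of 202 and 176 of 200 were listed in all 8 libraries from Paupar, Pax6P0 and Pax6P1. Values below are shares of cis reads in percent, with means ± SD over n = 2 libraries of a cell type unless another n is given. The sources used here name no molecular identifiers, so reads may not be separate molecules, and a share over many cells does not tell how many cells hold a contact.

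The neighbourhood took 16.5% to 25.9% of listed cis reads over the 24 files, and no cell type stood apart past the test. Its mean over 8 libraries was 22.3%, 20.2% and 18.6% from Paupar, Pax6P0 and Pax6P1. With the fewest reads that could give each run of adjacent counts, these means were 12.3%, 12.3% and 11.3%. As listed, from Paupar it held 21.6% and 20.1% in the ES, 20.7% and 24.4% in the NSC, 20.2% and 21.5% in the neuron and 24.0% and 25.9% in the N2a libraries. Read from Pax6P0, the neighbourhood held 18.5% and 21.1% in the ES, 17.8% and 24.3% in the NSC, 19.2% and 20.2% in the neuron and 19.6% and 21.1% in the N2a libraries. Read from Pax6P1, it was 17.9% and 18.7% in the ES, 21.9% and 18.8% in the NSC, 18.9% and 18.6% in the neuron and 17.2% and 16.5% in the N2a libraries. N2a thus held the highest mean from Paupar (24.9% ± 1.29, against 20.8% ± 1.04 in ES) and the lowest from Pax6P1 (16.8% ± 0.509, against 18.3% ± 0.530 in ES), while the pair of NSC libraries spanned most of the range from Pax6P0.

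None of these differences passed. An exact permutation test of the F statistic over the 4 cell types, which can reach a p of 0.00952, gave adjusted p of 0.4, 0.971 and 0.143 over the 3 viewpoints, with a raw p of 0.0476 from Pax6P1. NSC, neurons and N2a together differed from ES by 0.12, 0.04 and 0.02 on the log2 scale from Paupar, Pax6P0 and Pax6P1. The two-sided exact permutation test of those 6 libraries against 2 gave adjusted p of 0.857, 0.893 and 0.893. Its smallest p is 0.0357 before adjustment, so after adjustment it could pass only if all 3 viewpoints reached that p. It could therefore hardly have found a difference.

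**Figure D1:**
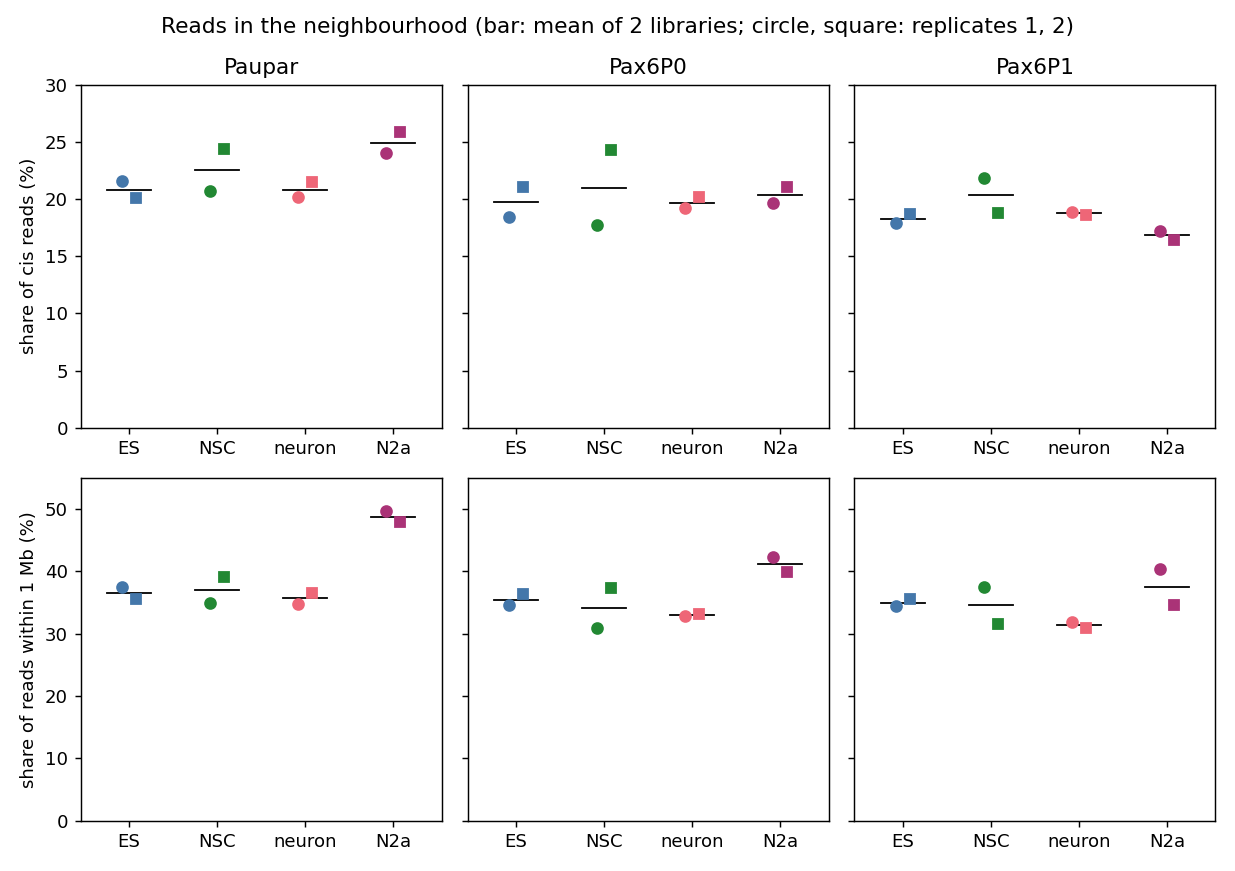
Share of reads that fell in the 90 kb neighbourhood, by cell type, from Paupar, Pax6P0 and Pax6P1 (columns), as percent of cis reads (upper row) and as percent of reads within 1 Mb of the viewpoint (lower row). Circles and squares are replicates 1 and 2 and bars their mean; in the upper row all 24 values lie between 16.5% and 25.9%, and in the lower row N2a from Paupar has the highest mean, at 48.8%.

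Reads were dense in the neighbourhood, which holds the sequence nearest the viewpoints. Its fragments held 0.279% of cis reads per kb from Paupar, 0.253% from Pax6P0 and 0.232% from Pax6P1 (means of 8 libraries), against 0.0181%, 0.0190% and 0.0186% per kb in the rest of the 1 Mb on either side. On listed counts, the only ones used for it, the ratio of inside to outside was 15.9 ± 4.31, 13.5 ± 2.30 and 12.7 ± 1.85 (SD, n = 8). From Paupar it was 13.7 ± 0.789 in the ES, 14.0 ± 1.79 in the NSC, 13.2 ± 0.722 in the neuron and 22.8 ± 1.07 in the N2a libraries. Taken as a share of the reads within 1 Mb, the neighbourhood held 36.5% ± 1.33 in the ES, 37.0% ± 2.97 in the NSC, 35.7% ± 1.25 in the neuron and 48.8% ± 1.17 in the N2a libraries from Paupar. Both N2a libraries lay above the other 6 there. From Pax6P0 these shares were 35.5% ± 1.31, 34.1% ± 4.50, 33.0% ± 0.267 and 41.1% ± 1.68, and from Pax6P1 35.0% ± 0.773, 34.6% ± 4.18, 31.5% ± 0.663 and 37.5% ± 4.08. The exact permutation test over cell types gave adjusted p of 0.243, 0.243 and 0.371 on this scale, so these differences did not pass either.

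Within the neighbourhood, reads were summed in 18 windows of 5 kb. Windows with no sequence left out held 7 to 17 fragments each, and a read may be listed at more than 1 of them. Windows next to the stretch left out around a viewpoint have a neighbour that lost reads to it, so they are not read as peaks. From Paupar the window most read was that from 105650000 to 105654999, which held 3.39% ± 0.831 (SD, n = 8). It begins 11.4 kb upstream of the viewpoint and lies within Pax6os1. In coordinates it is before Paupar, and so beyond the far end of that gene. It holds 16 fragments, against 12 in the window before it. It held 2.64% and 2.67% in the ES, 2.86% and 4.32% in the NSC, 2.91% and 2.99% in the neuron and 3.96% and 4.77% in the N2a libraries. Both ES libraries were the lowest of the 8. The next window downstream was cut by the 5 kb left out around the viewpoint. Away from that stretch, the window at 105625000 to 105629999 held 1.12% ± 0.305 (SD, n = 8) and stood above both of its neighbours in 7 of 8 libraries, with 0.800% to 1.57% per library. It holds 17 fragments, against 12 and 7 in those neighbours, and the part of fragment number in its reads was not tested. It lies between Gm35946 and Paupar, and within Pax6os1.

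The promoters read each other at similar levels from both ends. The window of the Pax6P0 viewpoint (105665000 to 105669999) held 2.94% ± 0.434 of the reads from Paupar, and the window of the Paupar viewpoint (105660000 to 105664999) held 2.99% ± 0.856 of the reads from Pax6P0 (SD, n = 8). Each lost part of its 5 kb to the stretch left out around the viewpoint. From Pax6P1 the Pax6P0 window held 2.82% ± 0.461 and the Paupar window 1.28% ± 0.306. In the other direction the window of the Pax6P1 viewpoint (105675000 to 105679999) held 2.11% ± 0.488 from Pax6P0 and 1.11% ± 0.271 from Paupar. The 3 promoters were therefore read in each direction, with less between Paupar and Pax6P1, the pair farthest apart at 13.714 kb.

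The pairs differed in which cell type was high, though no window holding a viewpoint passed in the test on all 8 libraries without scaling factors. The Pax6P0 window from Paupar passed over all cell types with TMM factors (edgeR adjusted p 0.0045), against 0.71% of all windows. With DESeq2 size factors it also passed for neural cells against ES (edgeR adjusted p 0.0158), against 0.304%. From Paupar, the Pax6P0 window held 2.44% and 2.18% in the ES, 3.08% and 3.45% in the NSC, 3.27% and 2.82% in the neuron and 3.12% and 3.20% in the N2a libraries. Both ES libraries were the lowest, and the mean of the neural cells stood 0.45 above ES on the log2 scale (SE 0.17, edgeR p 0.00819, adjusted p 0.284). From Paupar, the Pax6P1 window held 1.64% and 1.34% in the ES, 1.15% and 1.05% in the NSC, 1.05% and 0.855% in the neuron and 0.960% and 0.827% in the N2a libraries. Here both ES libraries were the highest, and the neural mean differed from ES by -0.61 (SE 0.23, edgeR p 0.00687, adjusted p 0.284). From Pax6P1, the Pax6P0 window held 3.42% and 3.18% in ES and 2.62% and 2.12% in N2a. NSC and neurons lay between 2.32% and 3.25% there, and the neural mean differed from ES by -0.32 (SE 0.18, edgeR adjusted p 0.513). From Pax6P0, the Paupar window held 2.24% and 2.41% in ES and 2.34% and 4.66% in NSC. Neurons held 2.51% and 2.71% and N2a 3.36% and 3.74% (neural mean 0.46 above ES, SE 0.23, edgeR adjusted p 0.581). ES had the highest mean in the Pax6P1 window from Pax6P0 (-0.47, SE 0.23, edgeR adjusted p 0.581) and the Paupar window from Pax6P1 (-0.51, SE 0.24, 0.513).

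**Figure D2:**
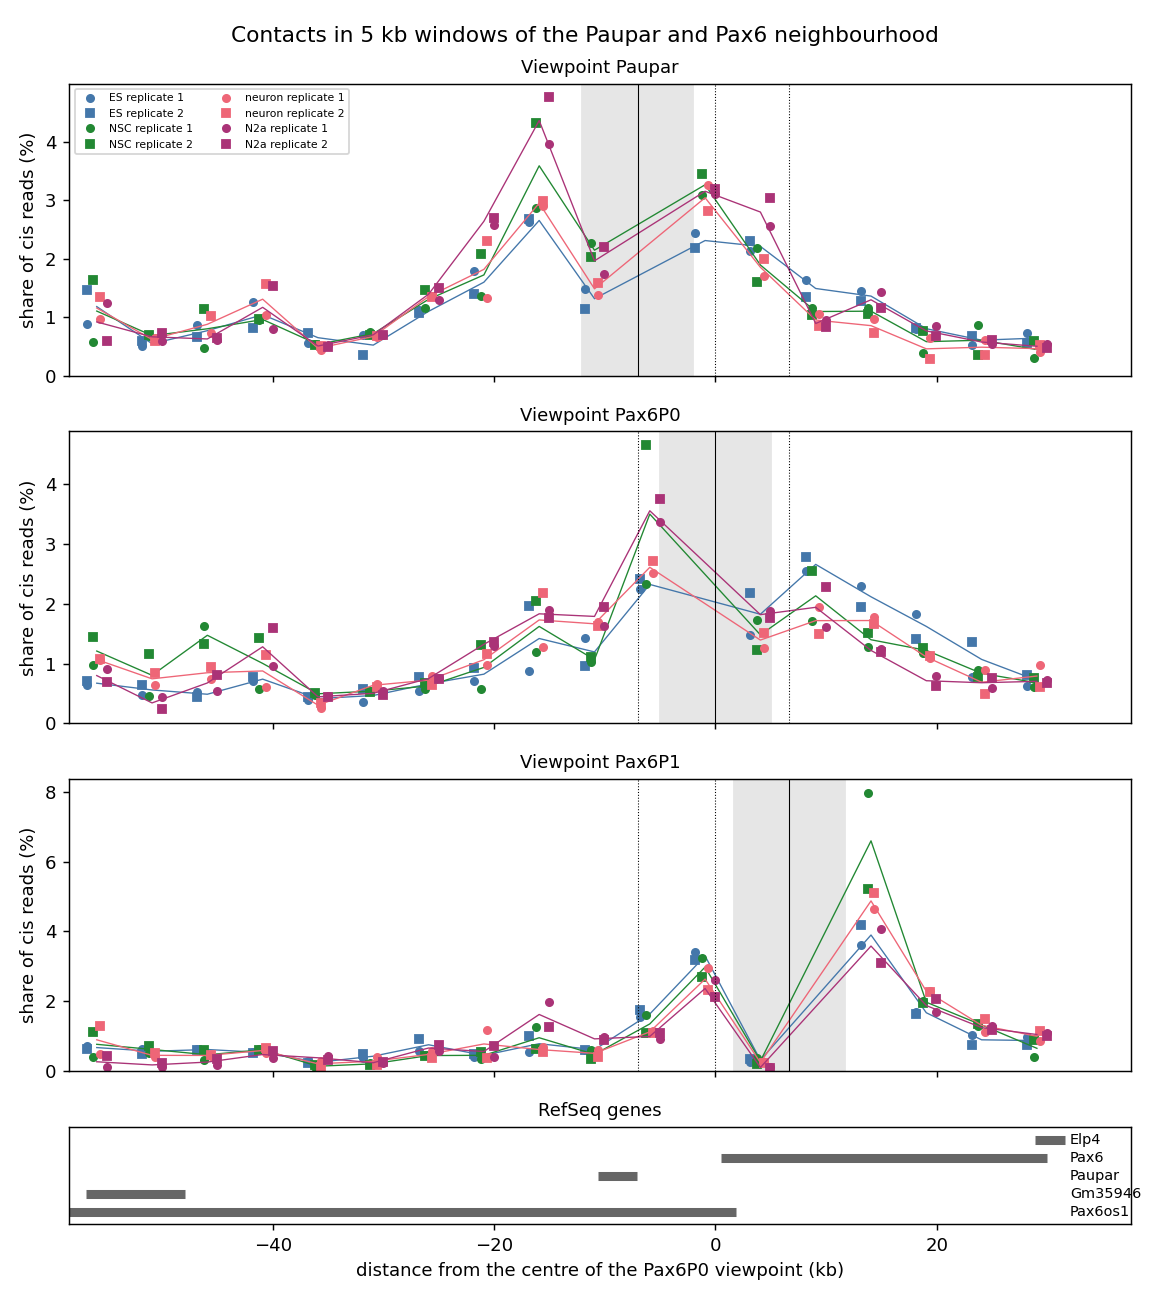
Share of cis reads (%) in each 5 kb window of the neighbourhood from Paupar, Pax6P0 and Pax6P1 (upper 3 panels), against distance in kb from the Pax6P0 centre; each point is a library, lines join cell type means, the solid and dotted vertical lines mark the panel's own and the other viewpoints, grey marks the 5 kb left out on either side of the own viewpoint (lines only bridge it), and the lowest panel shows RefSeq genes. From Pax6P1 the window just downstream stands above all others in every cell type, with library values from 3.11% to 7.97%.

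From Pax6P1 the window most read lay just downstream, within Pax6, from 105680000 to 105684999, and held 4.74% ± 1.49 (SD, n = 8). It contains the internal Pax6 promoter printed above. Its libraries held 3.60% and 4.20% in the ES, 7.97% and 5.22% in the NSC, 4.66% and 5.10% in the neuron and 4.06% and 3.11% in the N2a libraries. Both NSC libraries lay above the other 6, and the 2 NSC values themselves differed more than any other pair of replicates. The next window downstream, from 105685000 to 105689999, held 1.95% ± 0.260. From Pax6P0 the third most read window was the one before Paupar again, from 105650000 to 105654999, at 1.65% ± 0.468, with 0.881% to 2.18% per library.

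Single fragments were ranked by their mean share. From Paupar the fragment with the highest mean share was chr2:105667491-105668074, 584 bp just before Pax6, with 0.254% and 0.296% in the ES, 0.699% and 0.688% in the NSC, 0.429% and 0.498% in the neuron and 0.473% and 0.633% in the N2a libraries. Both ES libraries were the lowest and both NSC libraries the highest, on 73 to 391 reads per library. The fragment over the first Pax6 promoter itself, printed above, was read less from Paupar, with 0.0744% and 0.0533% in the ES, 0.134% and 0.120% in the NSC, 0.113% and 0.0835% in the neuron and 0.211% and 0.227% in the N2a libraries. Again ES was lowest, and N2a rather than NSC was highest, on 14 to 140 reads per library. Neither fragment was tested between cell types. The second fragment from Paupar, chr2:105666286-105667005, held 0.353% to 0.557% over the 8 libraries with no cell type apart.

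From Pax6P0 the 2 fragments with the highest mean share lay just past Paupar, at chr2:105662056-105662221 (0.548% ± 0.256) and chr2:105662321-105663389 (0.457% ± 0.109; SD, n = 8). The first ranged from 0.289% in NSC replicate 1 to 1.07% in NSC replicate 2, so that its extremes came from a single cell type. From Pax6P1 they were chr2:105682079-105682225 (0.441% ± 0.448), at the internal Pax6 promoter, and chr2:105669389-105670045 (0.404% ± 0.0890), near the start of Pax6. The former held 1.52% in NSC replicate 1 and 0.415% in NSC replicate 2, and 0.140% to 0.424% in the other 6 libraries, so that a single library set its mean. Over the 4 fragments of the internal promoter the reads from Pax6P1 were 0.530% and 1.13% in the ES, 2.92% and 1.47% in the NSC, 1.29% and 1.39% in the neuron and 1.05% and 0.443% in the N2a libraries. The same 4 fragments held 0.157% to 0.494% from Pax6P0 and 0.154% to 0.364% from Paupar.

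The neighbourhood was divided into 3 segments that lie outside every viewpoint, so that each can be read from all 3 promoters. The first 30 kb, around Gm35946 and the sequence after it, held 4.72%, 4.81%, 5.11% and 4.59% in ES, NSC, neurons and N2a from Paupar. Read from Pax6P0, the same 30 kb held 3.34%, 5.52%, 4.48% and 4.05%. Read from Pax6P1, the values were 3.09%, 2.83%, 2.89% and 1.82%. The order of cell types thus differed between the viewpoints, with ES lowest from Pax6P0 and N2a lowest from Pax6P1. The adjusted p of the exact permutation test over the 4 cell types was 0.914, 0.171 and 0.371 over 9 segment tests.

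The next 16.4 kb, up to 5 kb before the Paupar viewpoint, hold the most read window of Paupar. They took 6.67% ± 0.531 of the Paupar reads in the ES, 8.77% ± 1.57 in the NSC, 7.61% ± 0.864 in the neuron and 10.4% ± 1.13 in the N2a libraries. N2a was highest from the other viewpoints too, with 5.02% from Pax6P0 against 3.58% in ES, and 3.50% from Pax6P1 against 2.30% in ES. The exact permutation test gave adjusted p of 0.223, 0.404 and 0.429.

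The last segment, from 5 kb past Pax6P1 to the end of the neighbourhood, lies within Pax6 and the end of Elp4. From Paupar it held 3.42% and 3.25% in the ES, 2.66% and 2.71% in the NSC, 2.63% and 1.82% in the neuron and 3.30% and 2.80% in the N2a libraries. From Pax6P0 it held 5.46% and 5.40% in the ES, 3.91% and 4.22% in the NSC, 4.62% and 3.73% in the neuron and 3.32% and 3.17% in the N2a libraries, with ES highest and N2a lowest. From Pax6P1 it held 7.35% and 7.35% in the ES, 11.7% and 9.41% in the NSC, 8.96% and 10.0% in the neuron and 8.16% and 7.36% in the N2a libraries. NSC and neurons were thus highest from Pax6P1, while ES was highest from Pax6P0. The exact permutation test gave raw p of 0.0190, 0.0286 and 0.0381 and an adjusted p of 0.114 from each viewpoint, so none passed. With the fewest reads that could give each run of adjacent counts, its raw p were 0.0476, 0.8 and 0.257. The highest means stayed with ES from Pax6P0 and with NSC and neurons from Pax6P1. From Pax6P0, however, the ES libraries then held 2.27% and 3.33%, on either side of the neuron libraries at 2.67% and 2.73%.

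**Figure D3:**
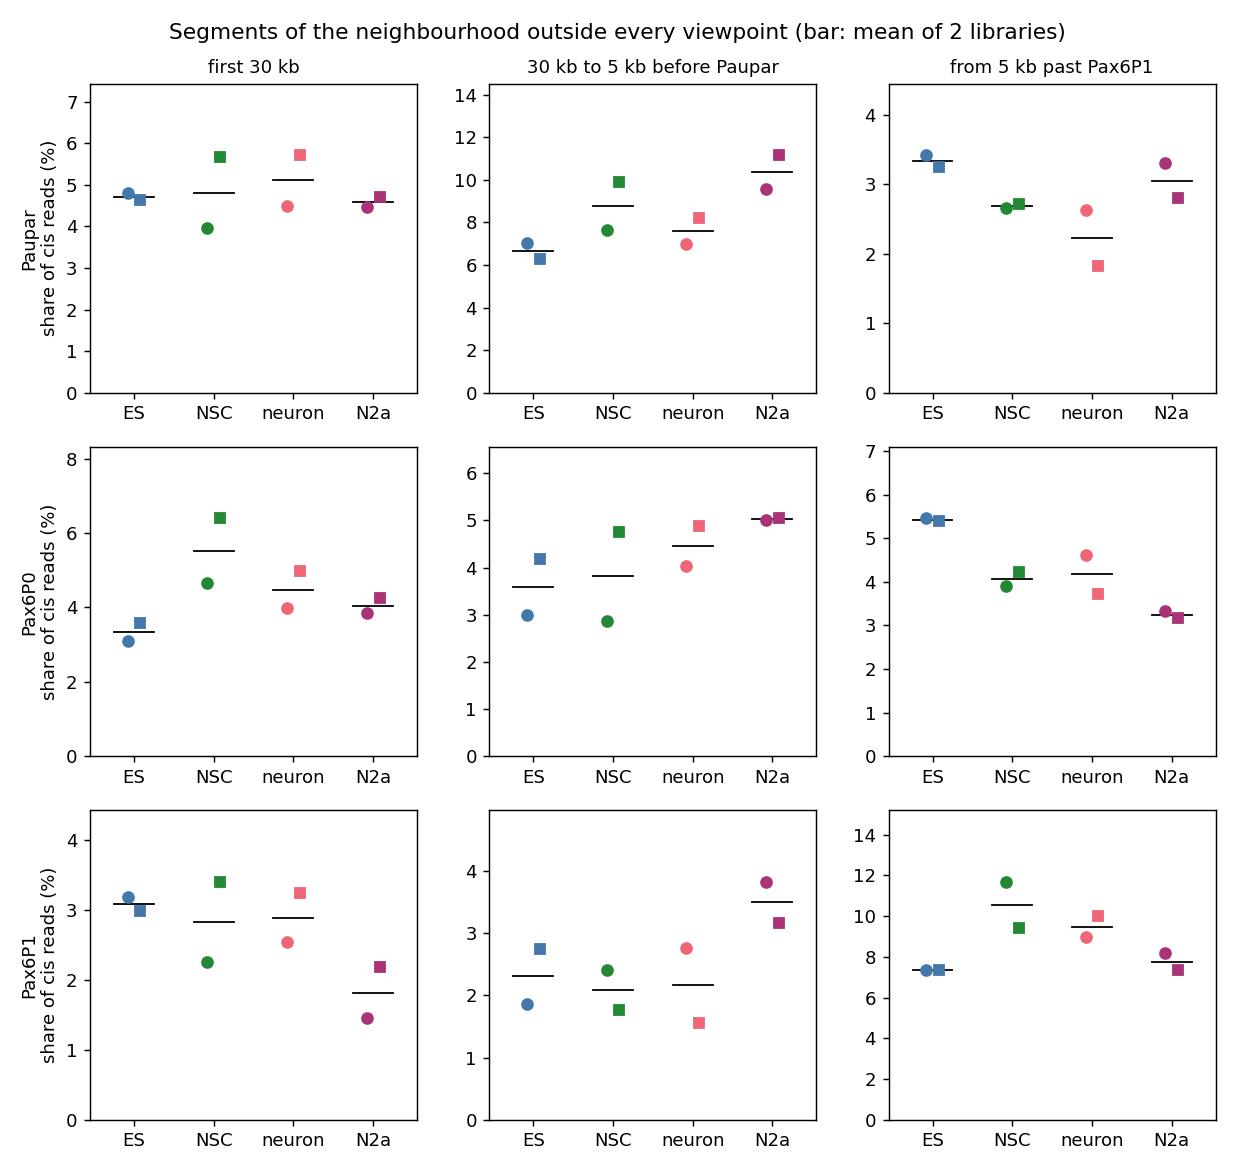
Share of cis reads (%) in 3 segments of the neighbourhood (columns) from each viewpoint (rows), by cell type; circles and squares are replicates 1 and 2, bars are means, and each panel has its own axis starting at 0. In the last column ES is highest from Pax6P0 (5.43% mean) and lowest from Pax6P1 (7.35% mean); no panel passed the exact permutation test after adjustment over the 9.

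As counted, contacts of Pax6P1 leaned downstream, into Pax6, in every library. Reads from 5 to 25 kb downstream were compared with those from 5 to 25 kb upstream of each viewpoint, distances at which both sides lie inside the neighbourhood. From Pax6P1 the ratio of downstream to upstream reads was 1.15 and 1.06 in the ES, 1.64 and 1.88 in the NSC, 1.58 and 2.16 in the neuron and 1.24 and 1.35 in the N2a libraries. All 8 ratios were above 1, and the 4 of NSC and neurons lay above the 4 of ES and N2a. The mean log2 ratio was 0.55, with p = 0.00781, the smallest an exact two-sided sign-flip permutation test over 8 libraries can give, and an adjusted p of 0.0234. The upstream side held both other viewpoints. Leaving them out keeps 19960 bases downstream and 11101 upstream, so the sides are no longer matched in distance. That setting could therefore not test their part in the ratio. With the fewest reads that could give each run of adjacent counts, the mean was 0.36 and 7 of 8 libraries were above 0, all but ES replicate 1 at a ratio of 0.978 (exact permutation p 0.0156, adjusted p 0.0469). With 10 kb in place of 5 kb left out around Pax6P1 it was 0.43 (7 of 8 libraries, adjusted p 0.117), which ended the call.

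The ratios of Paupar and Pax6P0 lay on both sides of 1. From Paupar they were 1.05 and 1.11 in the ES, 0.935 and 0.701 in the NSC, 0.958 and 0.741 in the neuron and 0.822 and 0.719 in the N2a libraries. Only the ES libraries were above 1, and the mean log2 ratio of -0.21 did not pass (6 of 8 libraries below 0, exact permutation adjusted p 0.117). The downstream side of Paupar held the Pax6P0 and Pax6P1 viewpoints. From Pax6P0 the ratios were 1.60 and 1.40 in the ES, 1.25 and 0.742 in the NSC, 0.997 and 0.772 in the neuron and 0.693 and 0.698 in the N2a libraries. Here ES leaned downstream and N2a upstream, and the mean over all libraries was -0.05 (exact permutation adjusted p 0.797).

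**Figure D4:**
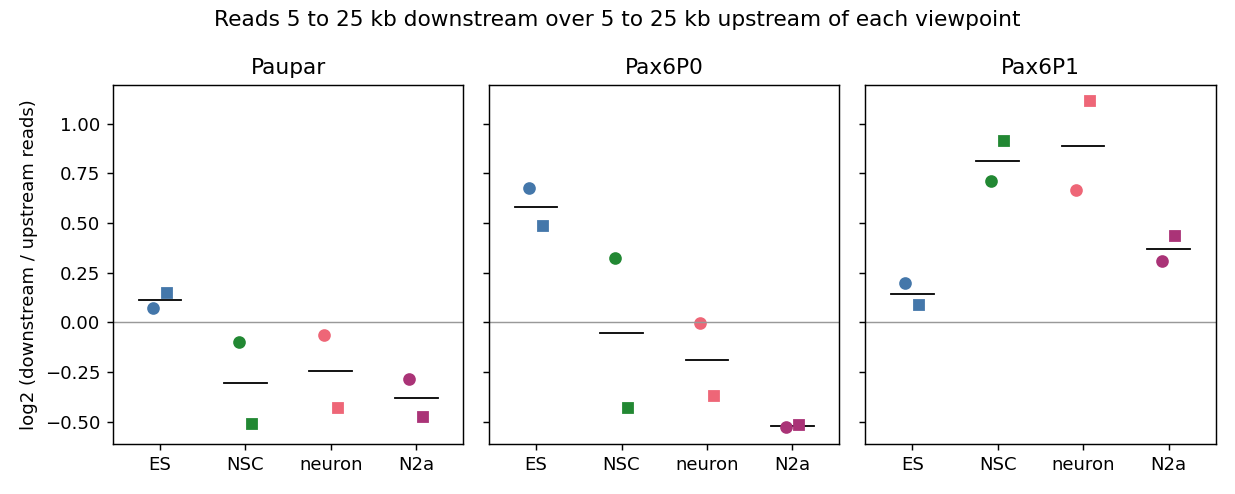
Reads 5 to 25 kb downstream over reads 5 to 25 kb upstream of each viewpoint, by cell type, with the line at equal reads; circles and squares are replicates 1 and 2 and bars their mean on the log2 scale. All 8 Pax6P1 libraries lie above equal reads (ratios 1.06 to 2.16), and from Pax6P0 both ES libraries lie above it and both N2a libraries below.

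Few single windows passed a test between cell types. Counts in 5 kb windows, up to 1 Mb from a viewpoint, were tested with edgeR's quasi-likelihood test, 986 windows in all and 17 of each viewpoint in the neighbourhood, 51 in all. Over all 4 cell types 0 of the 51 passed, against 0.304% of all windows (11 of the 51, or 21.6%, had an unadjusted p under 0.05, against 11.8% of all windows, and DESeq2 passed 2, against its background of 2.54%). In NSC against ES 0 passed, against 0.101% of all windows (13.7% unadjusted against 5.68%, and 1 by DESeq2 against 0.203%). In neurons against NSC 0 passed, against 0% of all windows (5.88% unadjusted against 3.45%, and 0 by DESeq2 against 0%). In the mean of NSC, neurons and N2a against ES 0 passed, against 0.101% (15.7% unadjusted against 8.11%, and 0 by DESeq2 against 0.304%). In N2a against NSC 1 passed, against 0.913% of all windows (23.5% unadjusted against 17.3%, and 3 by DESeq2 against 5.48%). The shares at an unadjusted p were thus above those of all windows in each comparison. Neighbourhood windows lie nearer the viewpoints and hold more reads than most, and the part of that in these shares was not tested. The spread edgeR found between libraries of a cell type (biological coefficient of variation) was 66.5%, 70.6% and 71.0% from Paupar, Pax6P0 and Pax6P1. With 2 libraries per cell type and that spread, a window that did not pass is not thereby shown to be alike between cell types.

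The 1 window called was that within Pax6 most read from Pax6P1, from 105680000 to 105684999. It was lower in N2a than in NSC, with 3.58% ± 0.673 against 6.60% ± 1.94, a log2 change of -0.88 (SE 0.21, edgeR adjusted p 0.0318). The call ended without NSC replicate 1 (-0.54, adjusted p 0.265), without N2a replicate 1 (-1.09, 0.0887) or N2a replicate 2 (-0.70, 0.249), and with TMM factors (-0.18, 0.759) or DESeq2 size factors (-0.24, 0.759). It also ended when the fewest reads that could give a run of adjacent counts were used (-0.84, 0.205).

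Most windows of the 1 Mb held fewer reads in N2a than in NSC, and those of the neighbourhood about as many. In N2a against NSC the log2 changes of all tested windows had medians of -0.68, -0.79 and -0.68 from Paupar, Pax6P0 and Pax6P1, and those of the 17 neighbourhood windows -0.04, -0.10 and -0.09. TMM factors moved the medians of all windows to -0.07, -0.30 and -0.02 and those of the neighbourhood to 0.60, 0.40 and 0.61. Then 17, 13 and 12 of 17 windows were higher in N2a, against 8, 8 and 7 without the factors. With TMM factors 3 Paupar windows passed, against 0.304% of all windows, each higher in N2a: those starting at 105645000 (1.23, edgeR adjusted p 2.6e-04), 105650000 (0.90, 0.00142) and 105670000 (1.21, 2.6e-04). Over all cell types TMM factors passed 6 of the 51 windows, against 0.71% of all windows, and DESeq2 size factors 7, against 0.811%, so that these calls depended on the scaling. The neighbourhood median stood 0.64, 0.69 and 0.59 above that of all windows without the factors and 0.67, 0.70 and 0.63 above it with them. Windows nearer a viewpoint hold more reads than others, and the part of that in the difference was not tested.

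The windows with the smallest p over all cell types were spread over the neighbourhood. From Paupar they were the one before Paupar starting at 105650000, described above (edgeR adjusted p 0.0566), and its neighbour starting at 105645000 (adjusted p 0.198). The latter held 1.80% and 1.40% in the ES, 1.37% and 2.08% in the NSC, 1.34% and 2.30% in the neuron and 2.58% and 2.70% in the N2a libraries, with both N2a libraries highest. From Pax6P0 the smallest p was at 105620000 to 105624999, which holds the end of Gm35946, with 0.527% and 0.449% in the ES, 1.62% and 1.32% in the NSC, 0.747% and 0.947% in the neuron and 0.547% and 0.806% in the N2a libraries (adjusted p 0.102). Both NSC libraries were the highest, and NSC against ES gave a log2 change of 1.59 (SE 0.38, edgeR adjusted p 0.0586). The second Pax6P0 window, at 105685000 to 105689999 within Pax6, held 1.62% ± 0.298 in ES and 0.714% ± 0.119 in N2a, with NSC and neurons between (adjusted p 0.301).

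From Pax6P1 the smallest p fell to the window already described at 105680000 (edgeR adjusted p 0.110 over all cell types), and the second to 105650000 to 105654999, the window before Paupar (0.238). The latter held 0.558% and 1.02% in the ES, 1.27% and 0.650% in the NSC, 0.688% and 0.553% in the neuron and 1.98% and 1.27% in the N2a libraries. Both N2a libraries were the highest of the 8. From Pax6P0 the same window held 0.881% and 1.96% in the ES, 1.20% and 2.04% in the NSC, 1.28% and 2.18% in the neuron and 1.90% and 1.77% in the N2a libraries, and the cell types overlapped there (edgeR adjusted p 0.895). The window before Paupar thus had its highest mean in N2a from Paupar (4.36% ± 0.576), Pax6P1 (1.62% ± 0.497) and, with overlap, Pax6P0 (1.83% ± 0.0907). It passed from no viewpoint in the test on all 8 libraries without scaling factors. Over all cell types it passed from Paupar with TMM factors (edgeR adjusted p 2.6e-08) and DESeq2 size factors (5.8e-11), against 0.71% and 0.811% of all windows. The 3 viewpoints were read in the same libraries, so these values are not independent.

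The authors' own q values, given for each fragment of a file, marked mainly fragments close to the viewpoints. At q under 0.05, 19 to 56 members per library were called from Paupar, 13 to 35 from Pax6P0 and 16 to 40 from Pax6P1. Over the 8 files this was 19.6%, 10.1% and 13.9% of member entries, against 0.571%, 0.437% and 0.584% of all cis fragments listed beyond 5 kb. Members made up 70.4% to 90.3%, 48.4% to 95.7% and 36.7% to 88.9% of a file's cis calls. N2a had the lowest share from Pax6P1 (36.7% and 51.9%), where its files also called the most cis fragments (60 and 77, against 19 to 37 in the other 6).

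Only a few fragments were called in all 8 libraries, 9 from Paupar, 4 from Pax6P0 and 4 from Pax6P1, while 117, 141 and 130 members were called in none. Those of Paupar lay within 6.87 kb of the viewpoint, 4 before the gene in coordinates and 5 between Paupar and Pax6. Those of Pax6P0 all lay upstream, next to Paupar, within 6.50 kb. Those of Pax6P1 lay within 9.60 kb, 3 of them downstream within Pax6. ES had 32 Paupar fragments called in both replicates, NSC 15, neurons 26 and N2a 33. In the same order of cell types the Pax6P0 counts were 13, 10, 8 and 11, and the Pax6P1 counts 20, 15, 15 and 10. Counts of calls in both replicates or in all 8 libraries are of members alone, with no such count over all cis fragments beside them. They are therefore not read as differences between cell types in the neighbourhood. The lowest count of members called from Paupar, 19, came from the shallowest file (NSC replicate 1, 10439 cis reads), and the highest, 56, from the deepest (ES replicate 1, 71202), and the part of depth in these counts was not tested.

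**Figure D5:**
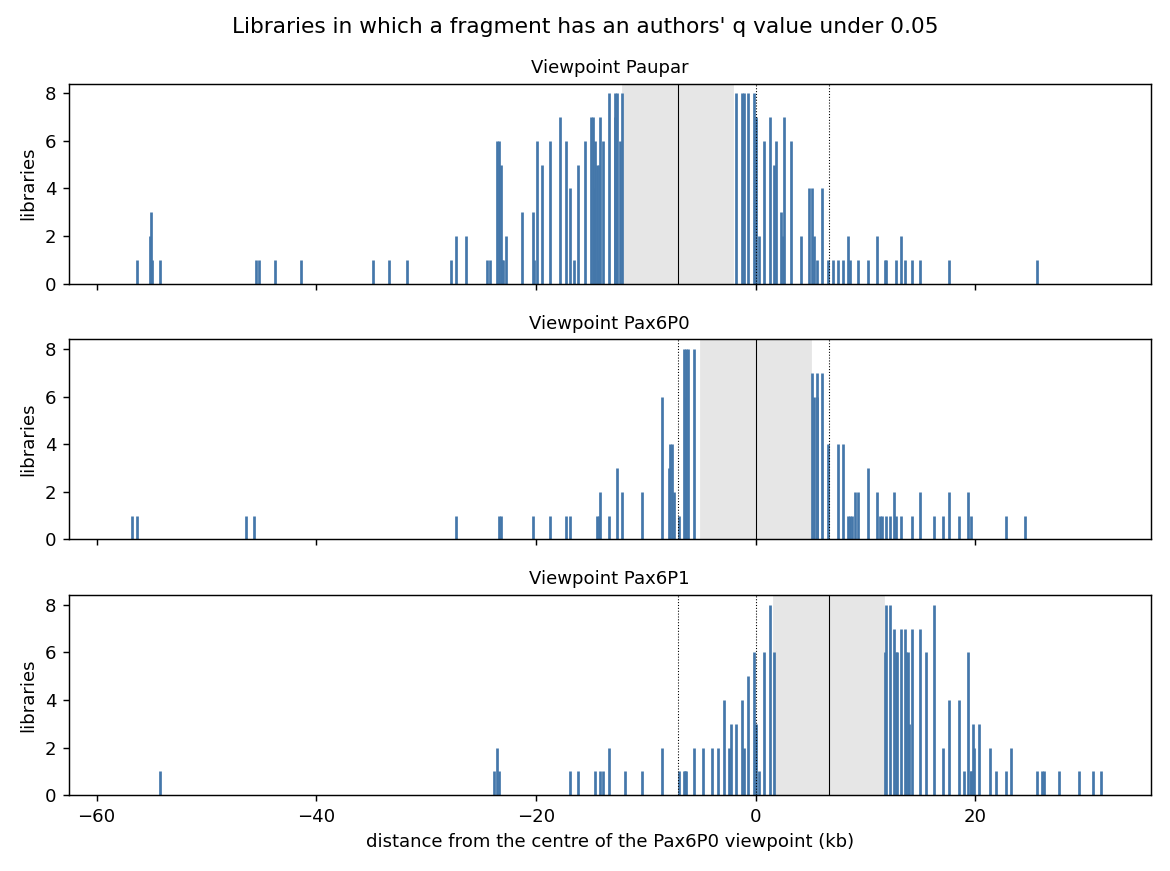
Number of libraries, of 8, in which each member fragment had an authors' q value under 0.05, against distance in kb from the Pax6P0 centre, for the 3 viewpoints; grey marks the 5 kb left out on either side of the panel's own viewpoint (solid line) and dotted lines mark the other viewpoints. The fragments called in all 8 libraries (9, 4 and 4) lie within 6.87, 6.50 and 9.60 kb of their viewpoint.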

How the data were processed

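Contacts of 3 viewpoints at the Pax6 locus were read in 8 libraries (24 files). The tools named in the submitters' processing notes are Trim Galore and Bowtie, and the build is mm10. Not given in the sources used here are versions, the enzyme, duplicate removal, the interaction caller and how reads were assigned to fragments. The deposited read column holds whole-number counts for each fragment, in which a read may be listed at more than 1 adjacent fragment, so sums are of listed counts and not of molecules, and the deposited q column holds q-values, 1 for each fragment of a file. Files of the Sox2 and Pou3f3 viewpoints were not used here.

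The members and all lists were chosen with earlier results of these data known. Fragments within 5 kb of a file's viewpoint were left out, and the remaining chromosome 2 reads were the denominator and the library size. Single values were compared by exact permutation over libraries on the log2 scale. Windows of 5 kb within 1 Mb that passed filterByExpr (minimum count 10) were tested with edgeR 4.0.16 (quasi-likelihood, robust, no scaling factor, all 8 libraries), with Benjamini-Hochberg adjustment over the windows of a viewpoint and contrast at 0.05, and with DESeq2 1.42.0 as an alternative. The window script was tested on simulated data. From each viewpoint the windows named were the 3 with the highest mean share, those called, the 2 with the smallest p over all cell types, those holding another viewpoint and local peaks (above both neighbours in at least 7 of 8 libraries), of which those next to sequence left out around a viewpoint are not read as peaks. The 2 fragments with the highest mean share were named as well, and the fragments over the printed promoters were added. Permutation of 2 libraries against 2 cannot go below 0.333 and was not run.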

Additional observations from a re-analysis of the deposited data

Results flagged for a closer look

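The ratio of reads 5 to 25 kb downstream to reads 5 to 25 kb upstream pointed to opposite sides in ES and in other cell types, in every library of the cell types compared. From Paupar the mean log2 ratio was 0.11 in the ES, -0.31 in the NSC, -0.25 in the neuron and -0.38 in the N2a libraries. ES thus lay above NSC by 0.42, above neurons by 0.36 and above N2a by 0.49. From Pax6P0 the mean was 0.58 in ES, -0.19 in neurons and -0.52 in N2a, differences of 0.77 and 1.10, with 1 neuron library at a ratio of 0.997, next to equal reads. Leaving out the other viewpoints, which takes sequence near Paupar from its downstream side alone, put all 8 Paupar libraries below 0 (mean -1.87, and -1.01 per base), so the opposite sides from Paupar were not kept there. With the fewest reads that could give each run of adjacent counts, neuron replicate 1 lay above equal reads from Paupar, at 1.05, so that ES and neurons no longer fell on opposite sides. With 2 libraries per cell type, these differences were not tested.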

How the results depend on the processing

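The comparisons of cell types over the neighbourhood and its segments passed in no alternative. Differences of the neural cells from ES close to 0 changed sign: from Paupar to -0.017 with 10 kb left out around the viewpoint, and from Pax6P1 to -0.028 as a share of reads within 1 Mb and -0.0068 with 10 kb left out. Leaving out 1 library gave 0.074 to 0.18 from Paupar, -0.057 to 0.13 from Pax6P0 and -0.026 to 0.056 from Pax6P1. The downstream ratio of Pax6P1 ranged from 0.47 to 0.62 without 1 library, with an exact permutation adjusted p of 0.0469 each time, did not pass with 10 kb left out (0.43), and was 0.36 in 7 of 8 libraries with the fewest reads (adjusted p 0.0469). Replicate numbers showed little pairing of the libraries (correlations of same-numbered deviations from -0.07 to 0.25, 3 of 18 over 0.1). For NSC with neurons they were 0.248 from Paupar, 0.153 from Pax6P0 and 0.011 from Pax6P1, the first 2 being the highest of the 18. The main tests did not pair these libraries. With the replicate block the ratio, 0.55 over 4 cell type means, had an adjusted p of 0.375 in a design that cannot go below 0.125. From Pax6P0 the ratio was 0.0062 without the other viewpoints and -0.15 to 0.022 without 1 library. From Paupar it was -1.87 without the other viewpoints and -1.01 per base, a setting chosen after seeing the data. Leaving the viewpoints out takes near sequence from 1 side only (11048 bases stay downstream and 20030 upstream of Paupar, 19960 and 11101 of Pax6P1), so the sides are no longer matched in distance and these values are not read as a lean. Counts of called windows over all cell types, 0 in the report, became 2 with the replicate block, 2 by the DESeq2 test, 6 with TMM factors, 7 with DESeq2 size factors, 2 without the filter, 2 with 10 kb windows, 1 within 500 kb and 0 to 5 without 1 library (0 only without N2a replicate 1, 5 without NSC replicate 2). NSC against ES became 1 with the replicate block, 1 by the DESeq2 test, 2 without the filter, 1 within 500 kb and 0 to 2 without 1 library (2 without NSC replicate 1 or 2, 1 without neuron replicate 2). N2a against NSC, 1 in the report, became 3 by the DESeq2 test, 3 with TMM factors, 3 with DESeq2 size factors, 2 with 10 kb windows, 0 with 2 kb windows, 0 with the fewest reads and 0 to 1 without 1 library (0 without N2a replicate 1, and a different window without NSC replicate 1 or N2a replicate 2, starting at 105615000 from Pax6P0 or 105610000 from Pax6P1). Neural cells against ES became 2 with DESeq2 size factors and 0 to 2 without 1 library, and neurons against NSC 0 to 1 without 1 library, in both cases through NSC replicate 1. The causes were not tested. Shares over all windows were at hand only for TMM factors, DESeq2 size factors and the DESeq2 test. With DESeq2 size factors they were 0.304% for N2a against NSC and 0.304% for neural cells against ES. Counts under the other settings have no such share beside them and are not read as a result about the neighbourhood. Of 328 such values under the alternatives 281 stayed as reported, among them tests that could not have passed in their setting.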
